A study of Mus musculus with 2 samples.

Results

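The let-7 hairpins that carry a copy number in their gene symbol are 6 of the 2202 miRNA genes counted in this series, and the rule that picks them reads the symbol alone and no measured value. They are Mirlet7a-1 and Mirlet7a-2, Mirlet7c-1 and Mirlet7c-2, and Mirlet7f-1 and Mirlet7f-2, so that let-7a, let-7c and let-7f are each encoded at 2 loci. Small RNAs were sequenced from bulk tissue of the left cerebral cortex. The animals were male B6CASTF1/J mice, F1 hybrids of the B6 and CAST strains, at 10 days of age. The labels name no treatment and only this group, with a size range below 30 and no unit for it. The group has 2 biological replicates, numbered as different males, although the labels give both the same donor entry. Sense reads on miRNA genes numbered 2677910 in replicate 1 and 1750076 in replicate 2, and levels are given as CPM, the share of these reads scaled to a fixed library total.

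let-7 miRNAs are a conserved family whose mature strand, cut from the 5p side of the hairpin, represses transcripts through its seed, bases 2 to 8. They accumulate as cells leave proliferation, and in developing brain they rise with neuronal differentiation, while the RNA-binding proteins LIN28A and LIN28B block their processing in undifferentiated cells. A miRNA encoded by more than 1 hairpin gives the same mature strand from each, so a short read of that strand cannot be placed at either locus.

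That sequence relation is shown first, because the deposited counts hold only reads that map to 1 place. All 9 mature 5p strands of the family have the same seed (GAGGUAG), in capitals below for the 3 strands encoded by more than 1 hairpin and, for comparison, for let-7b. The sequences are from RefSeq (GRCm38.p6), written 5′ to 3′.
let-7a: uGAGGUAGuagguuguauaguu
let-7c: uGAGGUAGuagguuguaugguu
let-7f: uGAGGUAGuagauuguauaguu
let-7b: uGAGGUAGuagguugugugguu
Counted from 1 at the 5′ end, let-7a differed from let-7c by A19G, from let-7f by G12A and from let-7e by U9G, 1 base in each case. let-7c differed from let-7b by A17G. let-7f and let-7c differed from each other at 2 positions, A12G and A19G.

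The mature strand alone did not separate the copies, and the bases after it did. Below are the 30 bases from the first base of the mature 5p strand in each hairpin, with the 22 mature bases in lower case and the 8 precursor bases that follow in capitals.
Mirlet7a-1: ugagguaguagguuguauaguuUUAGGGUC
Mirlet7a-2: ugagguaguagguuguauaguuUAGAGUUA
Mirlet7c-1: ugagguaguagguuguaugguuUAGAGUUA
Mirlet7c-2: ugagguaguagguuguaugguuUUGGGCUC
Mirlet7f-1: ugagguaguagauuguauaguuGUGGGGUA
Mirlet7f-2: ugagguaguagauuguauaguuUUAGGGUC
Reading from the mature start, a stretch of 24 bases was needed before it was held by no other listed hairpin for the let-7a and let-7c copies, and 23 bases for the let-7f copies. Moved 1 base upstream, a stretch of 22 bases was already particular to each of the 6 hairpins. The 8 bases after the mature strand were the same letters in Mirlet7a-2 and Mirlet7c-1, and again in Mirlet7a-1 and Mirlet7f-2.

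The 3p strands, from the other arm of the hairpin, separated some copies and not others. Capitals mark bases that differ from the other copy of the pair or lie beyond its end.
let-7a-1-3p: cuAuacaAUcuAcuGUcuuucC
let-7a-2-3p: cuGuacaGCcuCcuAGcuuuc
let-7c-1-3p: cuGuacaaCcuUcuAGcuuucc
let-7c-2-3p: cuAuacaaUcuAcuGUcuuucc
let-7f-1-3p: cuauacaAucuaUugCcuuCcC
let-7f-2-3p: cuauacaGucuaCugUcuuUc
The copies differed at 6 of 21 compared bases for let-7a, 5 of 22 for let-7c and 4 of 21 for let-7f. The 3p strand of Mirlet7a-1 was identical to that of Mirlet7c-2, although their 5p strands belong to different miRNAs, and those 3p reads again map to both loci. The other 4 3p strands were held by no other listed hairpin.

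Along the hairpins, windows of 22 bases held at another locus were few and lay at the mature strands. They numbered 7 of 73 in Mirlet7a-1 and 7 of 74 in Mirlet7c-2, the hairpins with both arms shared. Mirlet7a-2 had 2 of 75 and Mirlet7c-1 had 2 of 73, while Mirlet7f-1 had 1 of 68 and Mirlet7f-2 had 1 of 62. The other 6 family hairpins had 0 shared windows, as had 84.2% of all 442 detected hairpins. Only the listed hairpins were compared, not the whole genome. With 1 mismatch allowed, 33 windows of Mirlet7a-1 and 29 of Mirlet7f-2 had a match elsewhere, the most among the 6.

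**Figure D1:**
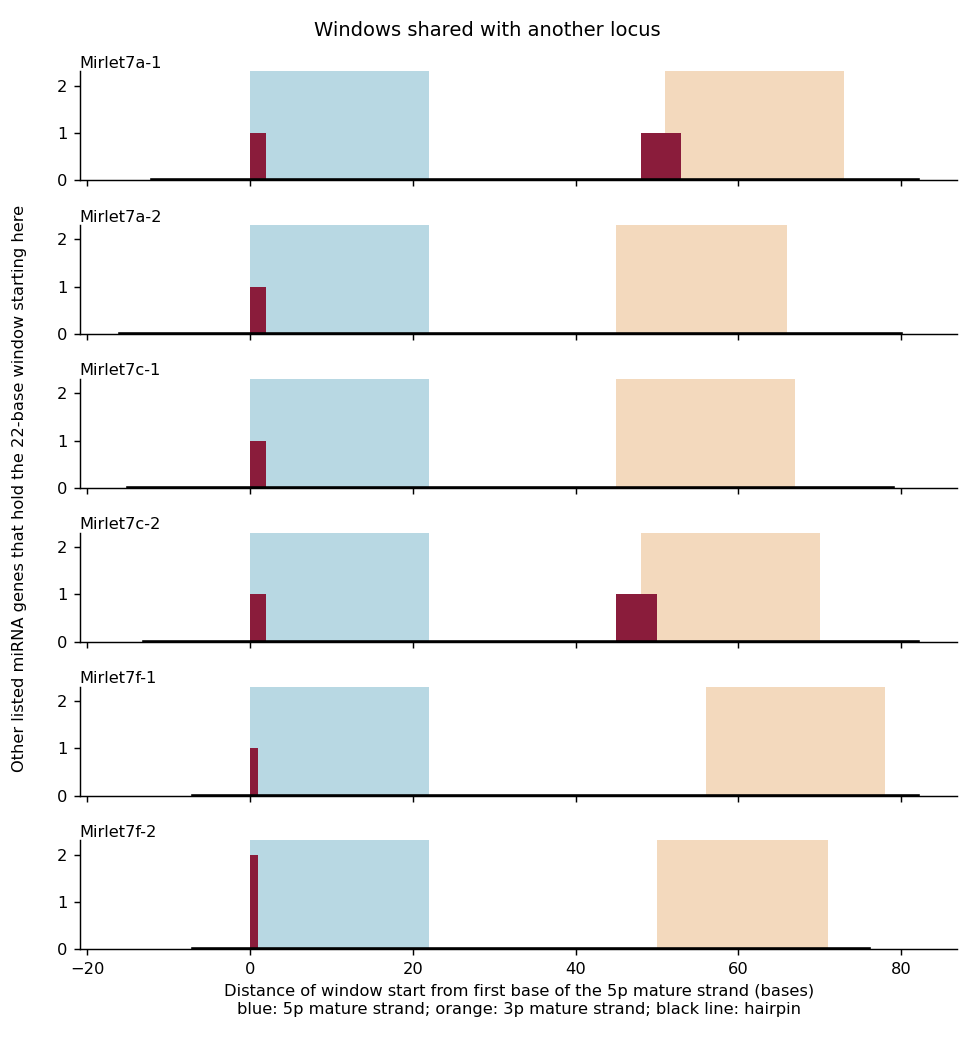
For each of the 6 hairpins, the bars give how many other listed miRNA genes hold the 22-base window that starts at that distance from the first base of the 5p mature strand (horizontal axis, bases). Shared windows sit at the start of the 5p strand (blue) in all 6, and at the 3p strand (orange) only in Mirlet7a-1 and Mirlet7c-2. The count of 2 in Mirlet7f-2 comes from Mirlet7f-1 and Gm24111, which lie on opposite strands of 1 locus.

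For 5 of the 6 hairpins the closest other member was not the second copy of the same miRNA; Mirlet7f-1 was closest to Mirlet7f-2. In pairwise global alignments Mirlet7a-1 was closest to Mirlet7f-2 (80.0% identical columns) and Mirlet7a-2 to Mirlet7c-1 (79.2%). Copies of the same miRNA reached 72.2% for let-7f, 68.9% for let-7a and 67.3% for let-7c.

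The 6 hairpins lie at 5 loci on 5 chromosomes (mm10, GENCODE M21), each near another miRNA gene on the same strand. On chromosome 13, minus strand, Mirlet7a-1 (48538179 to 48538272) and Mirlet7f-1 (48537829 to 48537917) lie in an exon of the long intergenic noncoding RNA 6720427I07Rik. Mirlet7d lies on the same strand, 1714 bases from Mirlet7f-1. Mirlet7a-2 lies on chromosome 9 at 41536716 to 41536811, plus strand, in an intron of the noncoding genes 3110039I08Rik and Gm49317. Mirlet7c-1 lies on chromosome 16 at 77599657 to 77599750, plus strand, in an intron of Mir99ahg. Mirlet7c-2 lies on chromosome 15 at 85706603 to 85706697, plus strand, in an exon of the noncoding Lncppara. Mirlet7f-2 lies on chromosome X at 151912346 to 151912428, plus strand, in an intron of Huwe1, which encodes a ubiquitin ligase.

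All 6 hairpins reached 2 CPM in each library and count as detected, as did 20.1% of all listed miRNA genes. Mirlet7c-2 had 7527 reads (2811 CPM) in replicate 1 and 4109 reads (2348 CPM) in replicate 2. Mirlet7f-2 had 4822 reads (1801 CPM) and 3540 reads (2023 CPM), and Mirlet7c-1 had 2460 reads (919 CPM) and 1269 reads (725 CPM) in replicates 1 and 2. These 3 hairpins ranked between 67th and 128th of all miRNA genes. Mirlet7a-1 had 1089 reads (407 CPM) in replicate 1 and 718 reads (410.3 CPM) in replicate 2. Mirlet7a-2 had 673 reads (251 CPM) and 327 reads (187 CPM), and Mirlet7f-1 had 373 reads (139 CPM) and 290 reads (166 CPM) in replicates 1 and 2. These 3 ranked between 150th and 205th, and every level stood far above the 1.12 and 1.71 CPM that 3 reads correspond to in replicates 1 and 2. The counts cover reads of either arm, and the arms were not counted apart.

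The order of the 6 levels was the same in both libraries, whether as CPM or as CPM per 100 bases of hairpin. Mirlet7c-2 averaged 2579 ± 327 CPM (SD, n = 2), Mirlet7f-2 1912 ± 157 CPM, Mirlet7c-1 822 ± 137 CPM, Mirlet7a-1 408 ± 2.55 CPM, Mirlet7a-2 219 ± 45.6 CPM and Mirlet7f-1 152 ± 18.7 CPM. No neighbours in this order overlapped between the libraries. Mirlet7c-2 and Mirlet7f-2 were the closest, at a ratio of 1.18 in mean CPM per 100 bases, and Mirlet7a-2 and Mirlet7f-1 were next at 1.33. Per 100 bases, the highest hairpin stood 18.9-fold above the lowest in replicate 1 and 13.3-fold in replicate 2. Of the hairpins whose mature strands both have an identical stretch elsewhere, Mirlet7c-2 was the highest of the 6 and Mirlet7a-1 was the 4th.

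**Figure D2:**
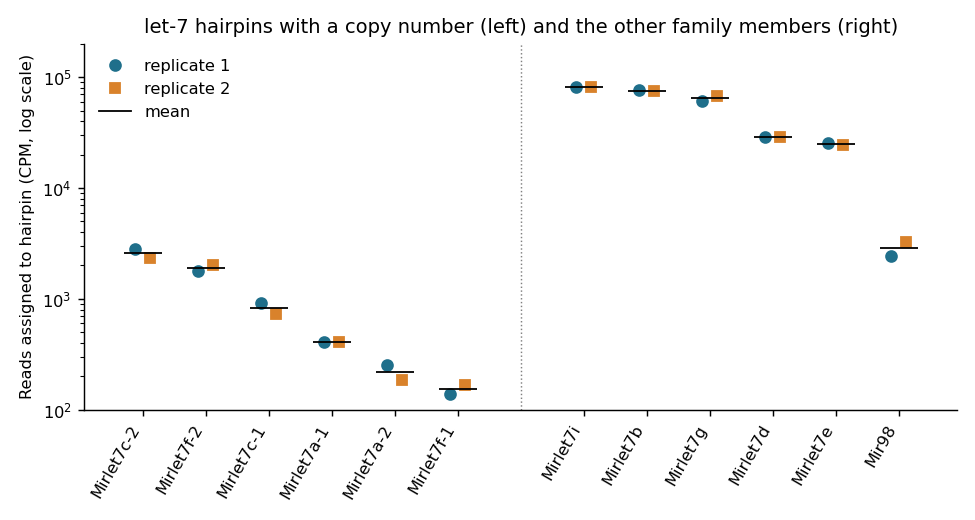
Reads assigned to each let-7 hairpin in CPM (log scale) for replicate 1 (circles) and replicate 2 (squares), with the mean as a line. The 6 hairpins with a copy number run from 2579 down to 152 CPM, and the lowest of the other family members, Mir98, averages 2853 CPM.

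The other 6 let-7 family hairpins, each the only source of its mature strand, held nearly all assigned family reads. The 6 hairpins with a copy number held 2.24% of them in replicate 1 (16944 of 756090 reads, 95% Wilson interval 2.21 to 2.27%) and 2.03% in replicate 2 (10253 of 505314, 1.99 to 2.07%). Their levels had a median of 615 CPM, against 46911 CPM for the other family hairpins. The lowest of those, Mir98, averaged 2853 ± 619 CPM (SD, n = 2) and Mirlet7c-2 2579 ± 327 CPM, and their order was reversed between the libraries (2416 CPM for Mir98 and 2811 CPM for Mirlet7c-2 in replicate 1, 3291 and 2348 CPM in replicate 2). Multimapped reads, placed at more than 1 position, are counted over the whole library. They include those of every multicopy miRNA and not only let-7, and can include RNAs other than miRNAs. These multimapped reads outnumbered the reads of the 6 hairpins 205-fold in each library. How many of them are let-7a, let-7c or let-7f was not measured, so the read counts leave out an unknown number of reads. How many mismatches the mapping allowed is not known, so reads from another locus may also be included. The CPM levels are relative to assigned reads only, and the shares do not compare the mature miRNAs.

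Other miRNA genes with a copy number are set beside them here as a description. Of 136 other miRNA genes whose symbol ends in a copy number 39 were detected (28.7%), with a median of 73.5 CPM among those detected. Among the 2060 genes without one 397 were detected (19.3%), with a median of 88.3 CPM. All 6 let-7 hairpins of this kind lay above both medians.

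Within each pair, 1 copy had more assigned reads than the other in both libraries. For let-7f the X-linked Mirlet7f-2 was ahead, with Mirlet7f-1 at 0.0774 times its reads in replicate 1 (95% exact binomial interval 0.0694 to 0.0860) and 0.0819 times in replicate 2 (0.0724 to 0.0924). For let-7c, Mirlet7c-1 had 0.327 times the reads of Mirlet7c-2 in replicate 1 (0.312 to 0.342) and 0.309 times in replicate 2 (0.290 to 0.329). The intervals of the 2 libraries overlapped for both pairs. For let-7a the first copy was ahead, with Mirlet7a-1 at 1.62 times the reads of Mirlet7a-2 in replicate 1 (1.47 to 1.78) and 2.20 times in replicate 2 (1.92 to 2.51), and here the intervals did not overlap. Per hairpin base the mean ratios were 0.0743 ± 0.00301 for let-7f, 0.321 ± 0.0129 for let-7c and 1.95 ± 0.417 for let-7a (SD, n = 2). The intervals cover counting error only. In all 3 pairs, the copy with more reads also had more U bases directly after the mature strand that the copies share. The run of U was 2 against 1 bases for let-7a and let-7c, and 2 against 0 for let-7f. Whether these bases bear on the ratios was not tested. The ratios compare assigned reads, and not the output of the loci.

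**Figure D3:**
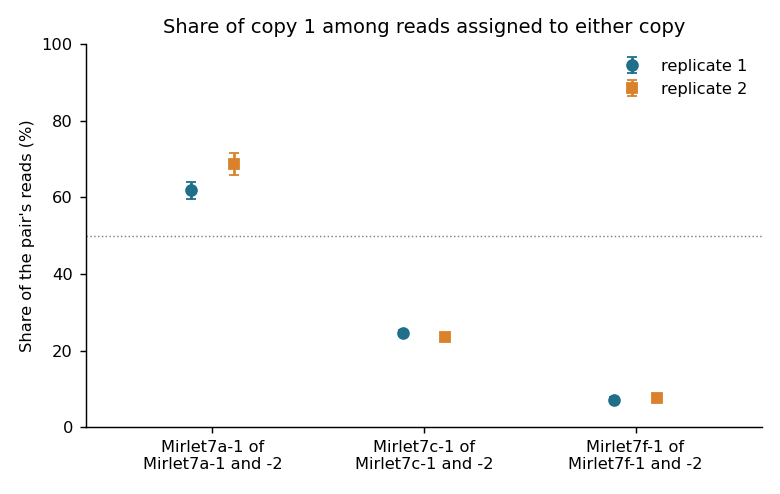
Share of copy 1 among the reads assigned to either copy of a pair (%), for replicate 1 (circles) and replicate 2 (squares), with 95% Wilson intervals and a dotted line at 50%. Mirlet7a-1 took 61.8% and 68.7% of its pair's reads in replicates 1 and 2, Mirlet7c-1 24.6% and 23.6%, and Mirlet7f-1 7.18% and 7.57%.

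Hairpins at the same locus had unequal counts. On chromosome 13, Mirlet7d had 29134 and 28723 CPM in replicates 1 and 2, while per hairpin base Mirlet7a-1 held 0.0153 and 0.0157 times its reads and Mirlet7f-1 0.00553 and 0.00668 times. On chromosome 15, Mirlet7c-2 held 0.0330 and 0.0278 times the reads of Mirlet7b per hairpin base, 621 bases away. On chromosome X, Mirlet7f-2 held 0.745 times the reads of Mir98 in replicate 1 and 0.615 times in replicate 2. Per hairpin base these ratios were 0.970 and 0.800. Mirlet7d, Mirlet7b and Mir98 each have 0 windows of 22 bases shared with another locus. Whether shared sequence bears on these ratios was not tested.

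The loci on chromosomes 9 and 16 have the same arrangement, a miR-99/100 hairpin upstream, a let-7 hairpin, and a miR-125b hairpin about 45 to 47 kb downstream. Mirlet7a-2 held 0.0442 and 0.0467 times the reads of Mir100 per hairpin base in replicates 1 and 2, and Mirlet7c-1 held 0.0321 and 0.0330 times those of Mir99a. These ratios stayed close between the libraries although all 4 hairpins had more CPM in replicate 1. The ratios to the miR-125b hairpins varied more. Per hairpin base they were 0.0757 and 0.0554 for Mirlet7a-2 over Mir125b-1 and 1.58 and 0.809 for Mirlet7c-1 over Mir125b-2. In reads, not divided by length, Mirlet7c-1 over Mir125b-2 was 2.09 and 1.07, so Mirlet7c-1 had more reads in both libraries. Mir125b-1 and Mir125b-2 themselves encode the same mature miRNA at more than 1 locus, so their counts leave out shared reads too. Mir3113, 52.7 kb from Mirlet7f-2, had 0 reads in both libraries.

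**Figure D4:**
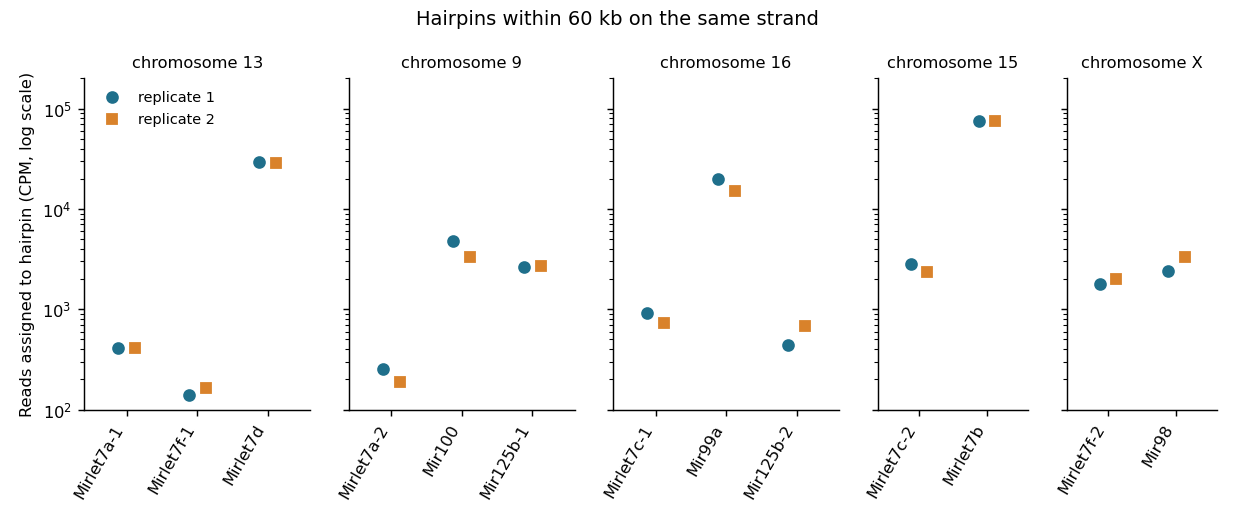
Reads assigned in CPM (log scale) for the 6 hairpins and the miRNA genes on the same strand within 60 kb, by chromosome, for replicate 1 (circles) and replicate 2 (squares). The let-7 hairpins with a copy number lie below Mirlet7d, Mir100, Mir99a and Mirlet7b at their loci, and Mir3113, with 0 reads, is not drawn.

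Each of the 6 hairpins differed by less than 2-fold between the libraries. The log2 ratios of replicate 1 over replicate 2 were 0.43 for Mirlet7a-2 (95% counting interval 0.23 to 0.62), 0.34 for Mirlet7c-1 (0.24 to 0.44) and 0.26 for Mirlet7c-2 (0.20 to 0.31). They were -0.01 for Mirlet7a-1 (-0.15 to 0.13), -0.17 for Mirlet7f-2 (-0.23 to -0.10) and -0.25 for Mirlet7f-1 (-0.48 to -0.02). In Fisher's exact test on the reads of the 2 libraries (two-sided, Benjamini-Hochberg adjusted over 542 genes), 0 of 6 combined a difference of 2-fold or more with an adjusted p under 0.05, where 12.0% of the tested genes did. With no minimum on the ratio 4 of 6 passed, where 42.3% of all tested genes did, and 5 of 6 had an unadjusted p under 0.05, against 47.0%. Of the 4, Mirlet7a-2, Mirlet7c-1 and Mirlet7c-2 were higher in replicate 1 and Mirlet7f-2 was lower, while 24.9% of all tested genes were higher and 17.3% lower. The test sets the difference between these libraries, each labelled as 1 animal, against counting error only, and compares no conditions.

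Both let-7f copies and Mir98, the neighbour of Mirlet7f-2 (log2 ratio -0.45), leaned to replicate 2. Mirlet7a-2 and Mirlet7c-1 leaned to replicate 1 with their upstream neighbours Mir100 (0.51) and Mir99a (0.38), and not with Mir125b-1 (-0.02) and Mir125b-2 (-0.63). Mirlet7b (0.01) stayed near equal beside Mirlet7c-2 (0.26), as did Mirlet7d (0.02) and Mirlet7a-1 (-0.01) beside Mirlet7f-1 (-0.25). The median size of the log2 ratio was 0.26 over the 6 hairpins, 0.04 over the other 6 family hairpins and 0.35 over all 442 detected genes. By this median, the group with a copy number differed more than the more deeply counted family members, although Mir98 exceeded each of the 6 in size. It differed less than the detected genes as a whole, which were less deeply counted, at a median of 89.4 CPM against 615 CPM. In bulk tissue, fewer cells of a type and less RNA per cell cannot be told apart.

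**Figure D5:**
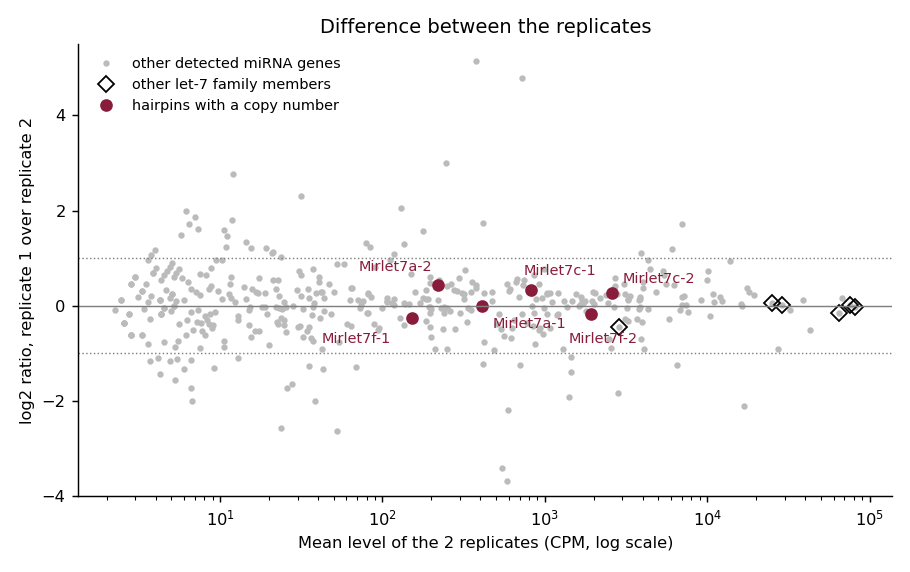
The log2 ratio of replicate 1 over replicate 2 against the mean level (CPM, log scale) for the 442 detected miRNA genes, with the 6 hairpins as filled circles, the other let-7 family members as diamonds and dotted lines at a 2-fold difference. The 6 hairpins lie between -0.25 and 0.43.

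In the closeness of both library values, the detected genes nearest to each hairpin were miRNAs of various families (Euclidean distance in log2 CPM over 2 libraries, 3 genes per hairpin). They were Mir341, Mir337 and Mir369 for Mirlet7c-2, Mir540, Mir484 and Mir134 for Mirlet7f-2, and Mir28a, Mir467d and Mir412 for Mirlet7c-1. For Mirlet7a-1 they were Mir421, Mir488 and Mir543, for Mirlet7a-2 Mir7-2, Mir186 and Mir193b, and for Mirlet7f-1 Mir30c-1, Mir210 and Mir203. The distances ran from 0.02 for Mir421 to 0.30 for Mir203, and with 2 libraries they describe levels and no shared pattern.

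The strand of the counts changed the read number of 1 of the 6 hairpins. Mirlet7f-1 overlaps Gm24111, an miRNA gene annotated on the opposite strand of the same locus at 48537825 to 48537921. With reads counted regardless of strand Mirlet7f-1 had 0 reads in both libraries, and with sense reads it had 373 and 290. Gm24111 had 0 sense reads in both libraries. None of the 6 hairpins had a read on its opposite strand. Outside the 6, the family hairpin Mirlet7e likewise had 0 reads regardless of strand, against 68203 and 42913 sense reads in replicates 1 and 2.

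Marker miRNAs were checked against the tissue label. Of 17 neuronal and cortical miRNA genes 13 were detected, summing to 46071 CPM in replicate 1 and 35704 CPM in replicate 2. Single genes differed in direction, with Mir128-1 at 18242 and 9510 CPM and Mir132 at 3886 and 9221 CPM. The 3 Mir124a genes and Mir9-2, all multicopy, had at most 10 reads in either library. The liver gene Mir122 had 55.6 and 45.1 CPM, 5 epithelial genes summed to 85.9 and 82.3 CPM, and 8 striated muscle genes to 57.9 and 69.1 CPM, with 4 of them, both Mir1a and both Mir133a genes, at 0. Those 4 are also multicopy, so that their shared reads are not counted and their 0 says little of muscle RNA. The 3 endothelial and mural genes summed to 13639 and 15214 CPM and the 3 microglial and leukocyte genes to 950.0 and 723 CPM in replicates 1 and 2. Mir150 alone held 844 and 628 CPM of the microglial and leukocyte sums. The 3 erythroid genes summed to 814 CPM in replicate 1 and 56.6 CPM in replicate 2, all 3 detected. Mir451a carried most of that difference, with 737 CPM in replicate 1 and 20.6 CPM in replicate 2, and Mir144 had 52.3 and 10.3 CPM, while Mir486 had 25.4 and 25.7 CPM. The part of what moved Mir451a and Mir144 in the differences of the let-7 hairpins was not tested.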

How the data were processed

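For each of the 2 libraries the authors deposited 3 columns of whole-number counts without column names, on assembly mm10 per the labels, with GENCODE M21 per a text file the authors deposited beside them. From their values the columns were read as counts regardless of strand, on the sense strand (used here) and on the opposite strand. No source used here names the aligner, counter or trimming. Library totals leave out the 4 summary rows. In replicate 1 these held 25.5% of all reads as unmapped, 38.2% as multimapped and 6.93% outside listed genes; in replicate 2 they held 42.4%, 28.3% and 5.74%, with 0 ambiguous sense reads in both. Counts were divided by the sense total over 2202 genes and given as CPM. M21 matched all 2202 identifiers. No account was taken of CAST alleles.

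Replicates come from labels. The p-values set 1 library against the other by counting error alone and estimate no spread between animals. Library ratios had 0.5 reads added to each count. Windows were searched on both strands of the listed M21 hairpins, leaving out hairpins that overlap. RefSeq hairpins matched the M21 sequence and coordinates for the 12 family genes. Library scaling alternatives came from edgeR 4.0.16 (TMM) and DESeq2 1.42.0 (size factors) in R 4.3.3, the rest from Python 3.11.15 with scipy 1.17.1 and Biopython 1.88. Named were the 6 members, same-strand hairpins within 60 kb, other family hairpins and the 3 detected genes nearest in level. Although the rule for the members uses no measured value, members, lists and tests were chosen with earlier results of these data known.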

Additional observations from a re-analysis of the deposited data

How the results depend on the processing

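With reads counted regardless of strand, the ratio of Mirlet7f-1 to Mirlet7f-2 was 0, with Gm24111 overlapping Mirlet7f-1 on the other strand. Per hairpin base, an alternative added after seeing the data, it was 0.0743, against 0.0796 per read. With no minimum on the ratio 4 of the 6 hairpins and 229 of 542 genes passed the library test, against 0 and 65 with it. The number of genes past the test under the other settings was added after seeing the data. It was 64 of 542 tested with TMM totals and 62 of 744 with no minimum beyond 1 read. At a minimum of 10 CPM it was 53 of 351, and with reads counted regardless of strand 62 of 530. TMM totals shifted all log2 ratios by -0.05 and DESeq2 size factors by -0.07; under TMM Mirlet7f-1 had an adjusted p of 0.0195 in Fisher's exact test, against 0.0662. Leaving out replicate 1 or replicate 2 gave shares of family reads of 2.03% and 2.24%, and copy ratios of 2.20 and 1.62 for let-7a, 0.309 and 0.327 for let-7c, and 0.0819 and 0.0774 for let-7f. Counting reads mapped to more than 1 place in the library total lowered all 6 levels, that of Mirlet7c-2 to 1145 CPM and that of Mirlet7f-1 to 68.0 CPM, by construction. TMM totals and DESeq2 size factors moved none of the 6 levels by more than the SD between libraries. Windows shared with another locus depend on length: at 18 bases 72.7% of the windows of Mirlet7a-1 were its own, at 24 bases 95.8%. With 1 group, no condition could be compared. No paired analysis was possible because there is only 1 group.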
